A study of Mus musculus with 12 samples.

Results

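The p53 pathway and its target genes were followed in mouse liver and liver tumours with and without survivin. Members were the genes whose name on the array equalled an entry of a fixed list of p53, its regulators and its textbook targets. The array named 33 of them among 34844 gene names, and 32 could be tested among 26506 genes above background. The missing gene is Eda2r, a receptor gene grouped here with Fas and Tnfrsf10b, whose probe was well above background on 1 of 12 arrays.

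All samples came from male mice of strain 129/SV/B6 that had received diethylnitrosamine (DEN), a liver carcinogen, at 50 mg/kg at 2 weeks of age. Poly(IC) was given 8 months after DEN and tissue was taken 1 week later. Every animal had also been irradiated and had received a bone marrow transplant 2 months earlier, the controls included. Survivin, the product of Birc5, acts in chromosome segregation and limits apoptosis. It was deleted by Mx-Cre, whose promoter responds to poly(IC) in hepatocytes and also in blood cells. The 4 groups were non-cancerous liver without Cre (Mxcre-, called wild-type liver), non-cancerous liver with Cre (Mxcre+, deleted liver), and hepatocellular carcinoma (HCC) without and with Cre (wild-type HCC and deleted HCC). Each had 3 arrays. The labels do not say whether the arrays came from separate animals, whether tumour and liver of 1 number share an animal, or which genotype the donor marrow had, so p-values measure the spread between these samples only.

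The p53 protein is a transcription factor that is held low by Mdm2 and Mdm4 and is released when DNA is damaged, when mitosis fails or when the Cdkn2a product ARF blocks Mdm2. It then switches on genes that stop the cell cycle, genes that favour apoptosis, and genes for repair and metabolism, and it switches on Mdm2 itself as a brake. In liver it is known as a barrier to tumour growth and to polyploidy after failed division. Much of p53 control acts on the protein, which an array of transcripts does not measure, so the transcripts of its targets are the readout here.

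The DNA around the starts of the members shows which of them carry the p53 motif close by. The p53 half-site is a motif of 10 bases that reads the same on both strands, and 2 half-sites with a spacer of at most 13 bases form a full site. Windows of 300 bases, 250 before and 50 after a gene's start, were taken from RefSeq on GRCm38.p6 and held 25 of the 33 members. Of these 25 members 11 had a half-site in a window, namely Aen, Bax, Ccng1, Cdkn1a, Ddit4l, Ei24, Gadd45a, Mdm2, Polk, Sesn1 and Trp53. By window the shares were 12 of 34 (35.3%) for the members and 2745 of 32851 (8.36%) for all genes. A full site was found in 24 of the 32851 windows (0.0731%), and among the members only in that of Cdkn1a, which encodes the cell cycle inhibitor p21. A match describes these letters and is not a measured binding site.

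The stretches below come from members whose values are described in the text, run 5′ to 3′ on the strand of the gene, and end before its start. Capitals mark half-sites.
Cdkn1a, chr17:29090871-29090972, plus strand: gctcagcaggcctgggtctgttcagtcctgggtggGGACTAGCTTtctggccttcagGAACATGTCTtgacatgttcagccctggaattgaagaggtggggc
Mdm2, chr10:117710900-117710979, minus strand: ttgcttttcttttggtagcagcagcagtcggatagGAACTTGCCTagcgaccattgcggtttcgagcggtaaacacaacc
Trp53, chr11:69580249-69580328, plus strand: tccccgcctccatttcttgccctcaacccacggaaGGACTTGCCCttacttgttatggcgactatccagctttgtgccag
Gadd45a, chr6:67037408-67037482, minus strand: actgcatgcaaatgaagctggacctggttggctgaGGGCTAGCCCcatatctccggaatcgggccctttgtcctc
Ccng1, chr11:40755427-40755506, minus strand: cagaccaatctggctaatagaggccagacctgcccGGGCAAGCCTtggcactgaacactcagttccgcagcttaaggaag
Aen, chr7:78895902-78895981, plus strand: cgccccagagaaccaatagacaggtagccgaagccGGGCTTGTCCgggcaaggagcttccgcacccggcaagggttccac
The 2 half-sites of Cdkn1a begin 73 and 51 bases before the start and are 12 bases apart. In Mdm2 the half-site begins 186 bases before the start, in Trp53 75 and in Gadd45a 40. In the windows of Cdkn1a and Ccng1, 20 adjacent bases also came within 2 mismatches of a full site without spacer, which 262 of all windows did (0.798%) and no other member's window did.

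Values below are log2 signals relative to the 75th percentile of the array, so 1 unit is a doubling, and they are given for replicates 1, 2 and 3 in that order. A level says nothing about another gene, since probes differ in brightness. Replicate 1 of every group was on slide 1 and replicates 2 and 3 were on slide 2. Slide 1 was dimmer, with 75th percentiles of 1131 to 1766 against 3343 to 3906 on slide 2, and the first principal component (53.2% of the variance) separated the slides. Wild-type liver replicate 1 had 49.0% of its spots well above background, and the other arrays had 69.2% to 83.4%. The model therefore had slide as a block (limma, Benjamini-Hochberg adjustment over 26506 genes). The same test on the 8 arrays of slide 2, with 2 per group, is set beside it. In bulk tissue fewer cells of a type and less RNA per cell cannot be told apart, which holds for every value below.

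A pair of arrays was in doubt. The deposited value table and the scanner files disagree on the array labelled deleted liver replicate 1 and the array labelled wild-type HCC replicate 1. Each column of the table correlates at 1.00 with the other's scanner file and at 0.964 and 0.970 with its own. The assignment of the scanner files was kept, and results are also given with these 2 arrays exchanged. Both are on slide 1, so slide 2 alone is free of the question. Birc5 read 2.85, 0.51 and 0.76 in wild-type liver, 2.42, -0.10 and -1.07 in deleted liver, 0.80, 0.82 and 1.76 in wild-type HCC and 0.06, 0.17 and -0.08 in deleted HCC. The array labelled deleted liver replicate 1 was thus above 2 of the 3 wild-type liver arrays, though below the one on its own slide. The doubt touches both tissues, since exchanging the 2 arrays turned the sign for 8 of 32 members in HCC and 6 in liver. Birc5 was lower by -1.08 in deleted HCC and by -0.96 in deleted liver (SE 0.69 in both, adjusted p = 0.727 and 0.552, limma). With the arrays exchanged the differences were -1.62 and -1.50, and on slide 2 -1.25 and -1.22. Leaving out each array gave -1.82 to -0.53 in HCC (ends: wild-type HCC replicates 1 and 3) and -1.76 to -0.38 in liver (ends: deleted liver replicates 1 and 3). In HCC the value was also near its low end without deleted HCC replicate 1 (-0.56), and in liver it was -0.50 without wild-type liver replicate 1. Birc5 has 2 other probes, with differences of -1.79 and -1.09 in HCC and -1.24 and -0.98 in liver (adjusted p = 0.535, 0.625, 0.470 and 0.481 over all probes, limma). Averaged over both tissues on slide 2 these 2 probes fell by 2.09 and 1.61 (adjusted p = 0.032 and 0.037). With the arrays exchanged they fell by 2.08 and 1.45 (adjusted p = 0.042 and 0.050), while without the exchange the block model gave averages of -1.52 and -1.03 that did not pass (adjusted p = 0.229 and 0.281). Their SE in HCC was 0.71 and 0.58 as labelled and 0.33 and 0.29 exchanged. For the probe of highest mean it was 0.68 and 0.44 in the same fits. On that probe, after the exchange, slide 1 read 2.85 and 2.42 in wild type and 0.80 and 0.06 in deleted samples. The right assignment is not known. Which part of Birc5 was deleted is not given, so the probes may lie outside it.

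Survivin deletion left no member past the adjusted threshold of 0.05 in either tissue. The members of smallest p in HCC were higher in the deleted samples: Phlda3, an inhibitor of Akt signalling, by 1.00 in HCC and 0.75 in liver, Mdm2 by 0.80 in HCC, and the death receptor Fas by 0.98 in HCC. In deleted liver Plk2 and Perp were lower, by -0.56 each. Trp53 itself was lower on slide 2 in both tissues, by -0.34 in HCC and -0.60 in liver. None of these passed the adjusted test with slide as a block or on slide 2 within a tissue. With the 2 arrays in doubt exchanged, the differences of Phlda3 and Mdm2 were smaller and that of Fas in HCC kept its size.

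In HCC, 20 of 32 members were higher in deleted arrays and 12 were lower, and the median difference was 0.14, against -0.02 over all genes tested. The limma count past the adjusted threshold was 0 members and 0 of all genes (0.0%). At an unadjusted p below 0.05 there were 3 members, all higher. That is 9.38% of members, against 7.89% of all genes, of which 3.44% were higher and 4.44% lower. In liver 19 members were higher and 13 lower, with a median of 0.07 against 0.05 over all genes. There the count was again 0 members and 0.0% of genes past the adjusted threshold, and 5 members at an unadjusted p below 0.05 (15.6%, against 11.8% of all genes). Of these 2 were higher and 3 lower, where 8.37% and 3.46% of all genes were. With the 2 arrays exchanged the medians were 0.01 in HCC and -0.05 in liver, and 2 and 1 members had an unadjusted p below 0.05 (8.87% and 9.22% of all genes). On slide 2 the medians were 0.11 and 0.04 (0.04 and 0.02 over all genes). There 3 members were higher and 1 lower at an unadjusted p below 0.05 in HCC, 12.5% against 19.0% of all genes (10.2% higher, 8.86% lower). In liver 6 were higher and 3 lower, 28.1% against 11.6% of all genes (5.54% higher, 6.08% lower). In each tissue 1 gene (0.00377%) passed the adjusted threshold on slide 2, in neither case a member. The groups of 3 did not overlap for 2 members in HCC, both higher (2.76% of genes were higher and 2.7% lower), and for 6 in liver, 3 higher and 3 lower (6.31% and 3.22% of genes). Between the pairs of slide 2, 9 members were higher and 5 lower without overlap in HCC (27.8% and 21.9% of genes), and 11 and 6 in liver (25.9% and 23.7% of genes).

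**Figure D1:**
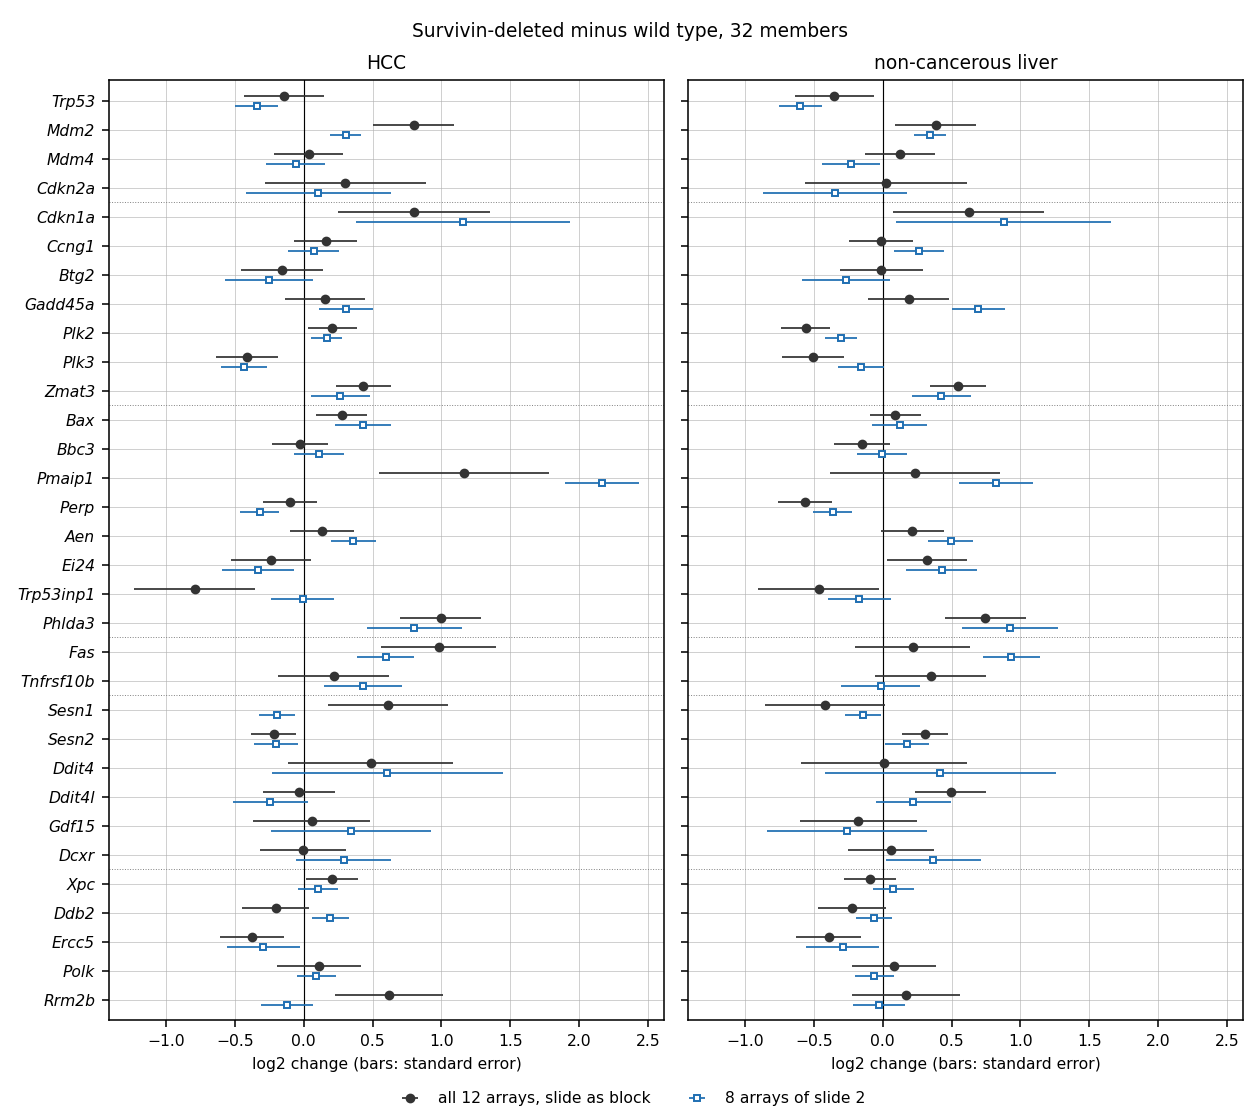
Difference between survivin-deleted and wild-type samples for 32 members, in HCC and in non-cancerous liver. The horizontal axis is the log2 difference (deleted minus wild type), points are estimates and bars are standard errors, filled for all 12 arrays with slide as block and open for the 8 arrays of slide 2, with dotted lines between the roles. Phlda3 lies right of 0 in all 4 estimates and Pmaip1 in HCC is farthest right on slide 2, at 2.17.

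Among the core genes, Trp53 read -0.84, 1.97 and 1.83 in wild-type liver and -0.70, 1.33 and 1.28 in deleted liver. In HCC it read -1.65, 2.12 and 1.79 in wild type and -1.40, 1.68 and 1.55 after deletion. All slide 1 values lie below all slide 2 values, and on slide 2 the deleted arrays lie below the wild-type arrays of the same tissue. The difference was -0.14 (SE 0.29, adjusted p = 0.932) in HCC and -0.35 (SE 0.29, adjusted p = 0.600) in liver. Exchanging the arrays gave -0.46 and -0.67 (adjusted p = 0.497 and 0.515), and slide 2 alone -0.34 and -0.60 (adjusted p = 0.298 and 0.312).

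Mdm2, the ubiquitin ligase that degrades p53 and is itself a p53 target, read 0.88, 2.07 and 2.01 in wild-type liver against 1.34, 2.44 and 2.33 in deleted liver. Its HCC values were -0.32, 2.12 and 2.18 in wild type and 1.47, 2.45 and 2.46 after deletion. Within each slide every deleted array was above every wild-type array of its tissue. The difference was 0.80 in HCC (1.74-fold, SE 0.29, adjusted p = 0.589) and 0.38 in liver (SE 0.29, adjusted p = 0.575). On slide 2 it was smaller in HCC, 0.30 (SE 0.11, adjusted p = 0.239), and 0.35 in liver (SE 0.11, adjusted p = 0.368). The array labelled wild-type HCC replicate 1 holds the lowest value, and with the arrays exchanged the differences were 0.25 and -0.17.

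Cdkn2a, which encodes the tumour suppressors p16 and ARF, had no settled direction. It read -0.88, -1.32 and -1.19 in wild-type liver and -0.12, -1.47 and -1.73 in deleted liver, with -2.26, -0.68 and -1.12 in wild-type HCC and -1.57, 0.06 and -1.64 in deleted HCC. The highest values are 1 array of deleted HCC and the array labelled deleted liver replicate 1, whose label is in doubt. The differences of 0.30 in HCC and 0.02 in liver (SE 0.59, adjusted p = 0.929 and 0.991) became -0.41 and -0.69 with the arrays exchanged. The array's gene name does not tell the p16 and ARF transcripts apart. Mdm4, a p53 inhibitor related to Mdm2, read -5.29 to -2.83 over the 12 arrays, and its differences were 0.03 and 0.13.

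**Figure D2:**
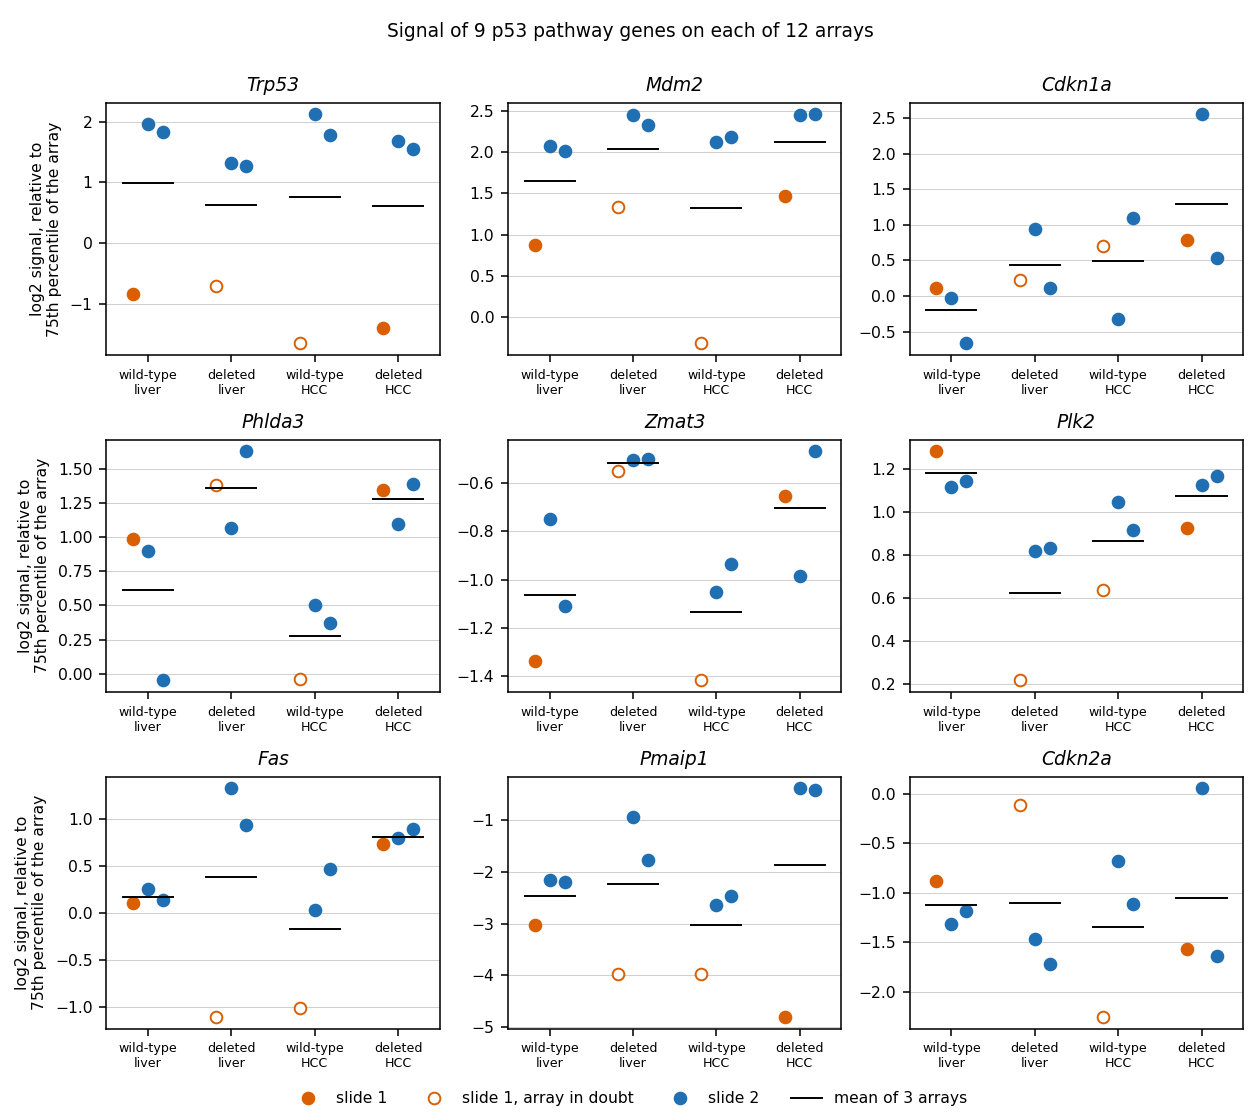
Signal of 9 members on each array, in log2 units relative to the 75th percentile of the array, by group. Orange points are slide 1 (open where the array is in doubt), blue points are slide 2, and the line is the mean of 3 arrays. Trp53, Mdm2 and Pmaip1 are set apart by slide, whereas Phlda3 in HCC is separated by genotype, with deleted arrays at 1.10 to 1.39.

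Among the cell cycle members, Cdkn1a is the classical p53 target that halts division. It read 0.12, -0.03 and -0.66 in wild-type liver and 0.23, 0.94 and 0.12 in deleted liver. In HCC it read 0.70, -0.32 and 1.09 in wild type and 0.79, 2.55 and 0.54 after deletion. The liver groups touch at 0.12 without overlapping, and the HCC groups overlap, with deleted HCC replicate 2 far above the rest. The difference was 0.80 in HCC (SE 0.55, adjusted p = 0.741) and 0.62 in liver (SE 0.55, adjusted p = 0.627). Leaving out each array in turn gave 0.14 to 1.22 in HCC and 0.36 to 0.86 in liver, where the 2 lowest values in HCC are those without deleted HCC replicate 2 (0.14) and without wild-type HCC replicate 2 (0.36).

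Zmat3, an RNA-binding p53 target, read -1.34, -0.75 and -1.11 in wild-type liver and -0.55, -0.51 and -0.50 in deleted liver. In HCC it read -1.42, -1.05 and -0.93 without and -0.65, -0.98 and -0.47 with deletion. The liver groups are separate and the HCC groups overlap by 1 deleted array. The difference was 0.55 in liver (1.46-fold, SE 0.20, adjusted p = 0.416) and 0.43 in HCC (1.35-fold, SE 0.20, adjusted p = 0.638). With the arrays exchanged it was 0.26 and 0.14.

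The polo-like kinases Plk2 and Plk3, which act in the stress response and the cell cycle, were lower in deleted liver. Plk2 read 1.29, 1.12 and 1.14 in wild-type liver against 0.22, 0.82 and 0.84 in deleted liver, and the groups are separate. The difference was -0.56 (1.47-fold lower, SE 0.18, adjusted p = 0.416), and on slide 2 it was -0.30 (SE 0.11, adjusted p = 0.408). The value 0.22 is of the array in doubt. The deleted liver mean of Plk2 was 0.62 as labelled and 0.76 exchanged, against 1.18 in wild-type liver. Plk3 read 3.13, 1.67 and 1.66 in wild-type liver and 1.92, 1.60 and 1.40 in deleted liver. Its difference of -0.51 (SE 0.22, adjusted p = 0.421) rests mostly on slide 1, since slide 2 gave -0.16. The deleted liver mean of Plk3 was 1.64 as labelled and 1.93 exchanged, against 2.15 in wild-type liver. In HCC Plk3 read 2.77, 1.63 and 1.94 without and 2.40, 1.48 and 1.23 with deletion, a difference of -0.41 (adjusted p = 0.676). Of the other cell cycle members, Gadd45a, a growth arrest gene, differed by 0.15 in HCC and 0.19 in liver, but on slide 2 by 0.70 in liver (adjusted p = 0.329). Ccng1 (cyclin G1) differed by 0.16 and -0.01, and Btg2, an antiproliferative gene, by -0.16 and -0.01.

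Among the apoptosis members Phlda3 was the one with the smallest p in HCC. It read -0.04, 0.50 and 0.37 in wild-type HCC and 1.34, 1.10 and 1.39 in deleted HCC. In liver it read 0.99, 0.89 and -0.05 without and 1.38, 1.07 and 1.63 with deletion. Neither pair of groups overlaps. The difference was 1.00 in HCC (2.00-fold, SE 0.29, adjusted p = 0.577) and 0.75 in liver (1.68-fold, SE 0.29, adjusted p = 0.416). On slide 2 it was 0.80 (SE 0.35) and 0.92 (SE 0.35), with adjusted p = 0.282 and 0.408. With the arrays exchanged the differences were 0.52 and 0.27 (adjusted p = 0.767 and 0.843), and without both arrays 0.73 and 0.85. With the arrays exchanged the groups overlap in both tissues, and without them or on slide 2 alone they are separate in both.

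Pmaip1 encodes Noxa, a BH3-only protein that neutralises Mcl1. It read -3.98, -2.64 and -2.47 in wild-type HCC and -4.81, -0.37 and -0.40 in deleted HCC. Liver values were -3.02, -2.15 and -2.19 without and -3.97, -0.93 and -1.77 with deletion. On slide 2 the deleted arrays lie above all wild-type arrays in both tissues, and on slide 1 each lies below the wild-type array of its own tissue. On slide 1 the probe was not well above background in wild-type liver and in deleted HCC. The difference over all arrays was 1.17 in HCC (SE 0.62, adjusted p = 0.668) and 0.23 in liver (SE 0.62, adjusted p = 0.892). On slide 2 it was 2.17 in HCC (SE 0.27, adjusted p = 0.082) and 0.82 in liver (SE 0.27, adjusted p = 0.365).

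The deletion difference averaged over both tissues was computed after the data had been seen. With slide as a block 0 members and 0 of all genes (0.0%) passed the adjusted threshold, and 6 members had an unadjusted p below 0.05 (18.8%, against 15.0% of all genes). On slide 2 there were 9 such members (28.1%, against 24.4% of all genes). There Pmaip1 was the only member to pass, and it rose by 1.49 (2.82-fold, SE 0.19, adjusted p = 0.042, limma), where 435 genes (1.64%) passed. With slide as a block the same average was 0.70 (SE 0.44, adjusted p = 0.449), so the call is lost when slide 1 is included. Other members there were Fas at 0.76 (adjusted p = 0.064), Trp53 at -0.47 (adjusted p = 0.085), Mdm2 at 0.32 (adjusted p = 0.094) and Phlda3 at 0.86 (adjusted p = 0.115), none of which passed. The 2 probes of Aen rose by 0.43 and 0.49 and did not pass either (adjusted p = 0.098 and 0.074 over all probes, limma).

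Perp, a p53 target of cell junctions, was lower in deleted liver. It read 3.53, 3.18 and 3.30 in wild-type liver and 2.57, 2.76 and 2.99 in deleted liver, and the groups are separate. The difference was -0.56 (1.48-fold lower, SE 0.20, adjusted p = 0.416), against -0.10 in HCC (adjusted p = 0.930). On slide 2 the differences were close, -0.36 in liver and -0.32 in HCC (adjusted p = 0.417 and 0.291). The deleted liver mean of Perp was 2.77 as labelled and 2.88 with the arrays exchanged, against 3.34 in wild-type liver. The other apoptosis members differed by less than 2 standard errors in both tissues. Bax, the pore-forming effector, differed by 0.28 in HCC and 0.09 in liver, and Bbc3, which encodes Puma, by -0.03 and -0.15. Aen, a nuclease of apoptosis, differed by 0.13 and 0.22, but on slide 2 by 0.36 and 0.49 (adjusted p = 0.294 and 0.342 over all probes, limma). Ei24 differed by -0.24 and 0.33. Trp53inp1, a p53 cofactor, had -0.79 and -0.47 on the probe of highest signal but 0.11 and 0.24 on another, so its direction depends on the probe.

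Of the death receptors, Fas read -1.01, 0.03 and 0.47 in wild-type HCC and 0.74, 0.80 and 0.90 in deleted HCC, and the groups are separate. In liver it read 0.11, 0.26 and 0.14 without and -1.11, 1.33 and 0.94 with deletion, where the array in doubt is the lowest of the group and the 2 others are above all wild-type arrays. The difference was 0.98 in HCC (1.97-fold, SE 0.42, adjusted p = 0.626) and 0.22 in liver (SE 0.42, adjusted p = 0.844). On slide 2 it was 0.60 in HCC (SE 0.21, adjusted p = 0.218) and 0.93 in liver (SE 0.21, adjusted p = 0.297). In HCC it kept its size with the arrays exchanged, at 1.01 (adjusted p = 0.532). Tnfrsf10b, the mouse TRAIL receptor, differed by 0.22 in HCC and 0.35 in liver (adjusted p = 0.927 and 0.722).

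The stress and metabolism members and the DNA repair members had no unadjusted p below 0.05 in either tissue. Of the sestrins, which restrain mTOR and oxidative stress, Sesn1 differed by 0.61 in HCC and -0.42 in liver, and Sesn2 by -0.22 and 0.31. The mTOR inhibitor Ddit4 differed by 0.49 and 0.01, its relative Ddit4l by -0.03 and 0.49, the stress cytokine Gdf15 by 0.06 and -0.18, and the reductase Dcxr by -0.01 and 0.06. In the nucleotide excision repair genes the differences were 0.20 and -0.09 for Xpc, -0.21 and -0.22 for Ddb2, and -0.38 and -0.39 for Ercc5. Ercc5 read 1.55, 1.50 and 1.33 in wild-type liver and 0.95, 1.14 and 1.11 in deleted liver, which do not overlap, but the difference did not pass (SE 0.23, adjusted p = 0.487). The translesion polymerase gene Polk differed by 0.11 and 0.08. Rrm2b, a ribonucleotide reductase subunit, differed by 0.62 and 0.17 and was not well above background on 2 arrays.

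HCC was then set against non-cancerous liver within each genotype. These contrasts use the arrays of the deletion contrasts again, so the results are not independent of them. In wild type 10 of 32 members were higher in HCC and 22 lower, with a median of -0.20 against 0.04 over all genes. With limma 0 members passed the adjusted threshold (0.0% of genes did), and 0 members had an unadjusted p below 0.05, against 6.09% of all genes. With the 2 arrays in doubt exchanged, 13 members were higher and 19 lower, and the sign turned for 11. Then 3 members had an unadjusted p below 0.05 (9.38%), against 3025 of 26506 genes. On slide 2 the median was 0.05, with 20 members higher, and 1 member, Ddb2 (-0.36), had an unadjusted p below 0.05 (7.66% of genes). The shift thus lies in slide 1, where this contrast sets an array in doubt against the array of fewest detected spots. The groups did not overlap for 1 member, Plk2, which was lower (2.39% of genes were lower and 4.67% higher). In deleted samples 18 members were higher in HCC and 14 lower, with a median of 0.06 against -0.04, none past the adjusted threshold (0.0% of genes). An unadjusted p below 0.05 was found for 1 member (4.38% of genes), again Plk2, whose groups did not overlap and which was higher here (2.23% of genes were higher and 2.26% lower). With the arrays exchanged 20 members were higher and 12 lower, and the sign turned for 8. Then 1 member, which was lower, had an unadjusted p below 0.05 (3.125%), against 1804 of 26506 genes. On slide 2 there were 5 such members, 4 higher and 1 lower (15.6%), against 2539 of 26503 genes.

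The 5 members of smallest p in wild type, none of which passed, were Ccng1, Plk2, Dcxr, Sesn2 and Btg2. Ccng1 read 1.42, 1.06 and 0.84 in wild-type liver and 0.30, 0.76 and 0.88 in wild-type HCC, a difference of -0.46 (SE 0.23, adjusted p = 0.752). Only 1 HCC array exceeded the lowest liver array. The lowest HCC value of Ccng1, 0.30, is of the array in doubt. With the arrays exchanged its means were 1.105 in liver and 0.829 in HCC, and leaving out each array gave differences of -0.63 to -0.18. Dcxr, an enzyme of xylulose metabolism, read 3.52, 2.76 and 2.96 in liver and 3.05, 2.29 and 2.35 in HCC, a difference of -0.52 (SE 0.31, adjusted p = 0.752). It was lower in HCC on each slide. Btg2 read 1.97, 1.38 and 0.77 in liver and 2.15, 1.56 and 1.80 in HCC, a difference of 0.46 (SE 0.30, adjusted p = 0.756), with overlapping groups.

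In deleted samples the smallest p-values belonged to Plk2, Ddit4l, Dcxr, Ei24 and Sesn2. Dcxr read 2.97, 3.16 and 3.30 in deleted liver and 2.45, 2.06 and 3.16 in deleted HCC, a difference of -0.58 (SE 0.31, adjusted p = 0.904). The groups overlap by 1 tumour array. Ddit4l read -2.79, -3.90 and -3.85 in deleted liver and -3.47, -4.61 and -3.96 in deleted HCC, a difference of -0.50 (SE 0.26, adjusted p = 0.904). Ei24, a gene of endoplasmic reticulum and autophagy, read 0.49, 1.76 and 1.53 in deleted liver and 0.83, 0.46 and 1.04 in deleted HCC. Its difference was -0.48 (SE 0.29, adjusted p = 0.904) and on slide 2 -0.90 (SE 0.26, adjusted p = 0.501), since the slide 1 arrays run the other way.

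**Figure D3:**
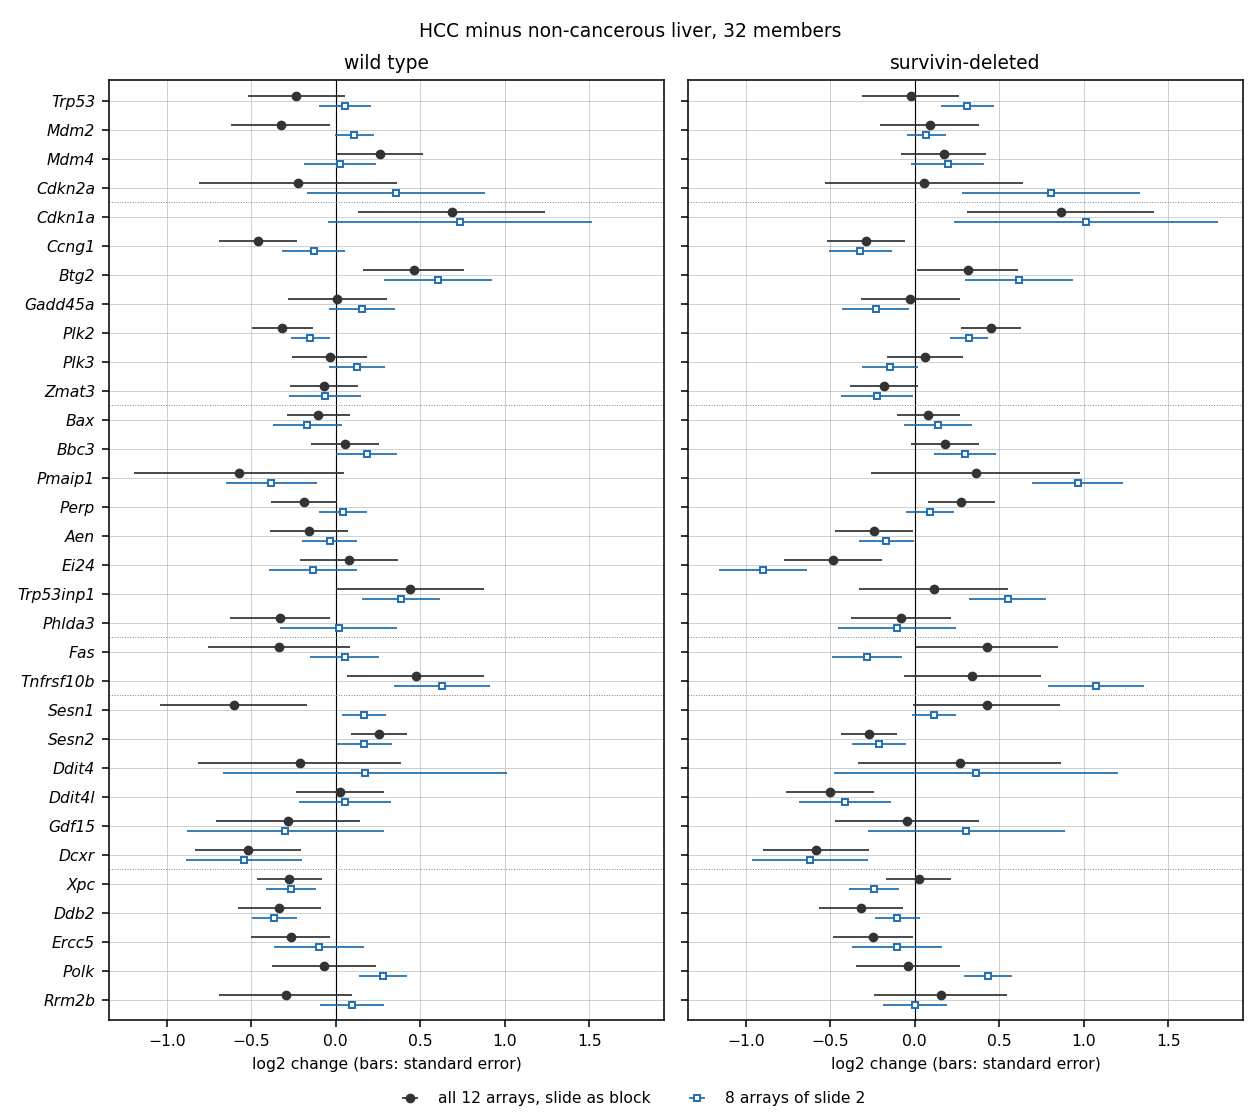
HCC minus non-cancerous liver for 32 members, in wild-type and in survivin-deleted samples. The horizontal axis is the log2 difference, with points and standard error bars for all 12 arrays (filled) and for slide 2 (open). Plk2 lies left of 0 in wild type (-0.32) and right of 0 in deleted samples (0.45), and Dcxr lies left of 0 in both.

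The tissues were compared for the size of the deletion effect by the interaction term. No member passed (0.0% of genes did, limma), and Plk2 and Sesn2 had an unadjusted p below 0.05 (6.25% of members, against 3.28% of genes). Plk2 read 0.64, 1.05 and 0.92 in wild-type HCC and 0.93, 1.13 and 1.17 in deleted HCC, so its deletion effect was 0.21 in HCC against -0.56 in liver. The difference was 0.77 (SE 0.25, adjusted p = 0.913), and 0.47 on slide 2 (SE 0.16, adjusted p = 0.999). Sesn2 read 0.28, 1.20 and 1.50 in wild-type liver, 0.85, 1.49 and 1.56 in deleted liver, 0.71, 1.39 and 1.64 in wild-type HCC and 0.46, 1.24 and 1.38 in deleted HCC. On slide 1 the deleted array was higher in liver and lower in HCC, and on slide 2 the deleted arrays were lower in HCC while those of liver overlap the wild type. The difference was -0.53 (SE 0.23, adjusted p = 0.913). Sesn1, Perp and Ddit4l followed, at 1.03, 0.46 and -0.53, with adjusted p = 0.913 each. Sesn1 read 0.26, 1.24 and 1.14 in wild-type liver, -0.70, 1.15 and 0.96 in deleted liver, -1.88, 1.39 and 1.33 in wild-type HCC and 0.34, 1.23 and 1.10 in deleted HCC. Its difference comes from slide 1 and was -0.05 on slide 2. In HCC Perp read 2.88, 3.20 and 3.37 in wild type and 3.21, 2.93 and 3.00 after deletion, with the same dependence on slide 1 (0.05 on slide 2). Wild-type values of Ddit4l were -3.82, -3.82 and -4.37 in liver and -3.85, -3.99 and -4.10 in HCC, all near the lower end of the signal.

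Other parts of the pathway were read from lists outside the members. Of 21 regulators of p53, such as kinases and acetylases, 1 was lower at an unadjusted p below 0.05 in HCC, the nuclear body gene Pml (-0.39, SE 0.16, adjusted p = 0.626), and 1 was higher in liver, the p53 relative Trp73 (0.90, SE 0.39, adjusted p = 0.420). Over all genes 4.44% were lower in HCC and 8.37% higher in liver at that threshold, so 1 of 21 is no result about the list. Of 22 further targets 15 were higher in deleted HCC (median 0.10) and 12 in deleted liver (median 0.08). The tetraspanin gene Cd82 (0.46, SE 0.17, adjusted p = 0.580) and Fbxw7 (0.48, SE 0.20, adjusted p = 0.619) were nearest to a call in HCC, and Ier3 in liver (1.63, SE 0.49, adjusted p = 0.416). Of 18 genes of the BCL2 family and the caspases, 9 were higher and 9 lower in deleted HCC (median 0.03), and 5 were higher and 13 lower in deleted liver (median -0.23).

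The cell cycle genes that p53 lowers through p21 were lower in deleted samples for 14 of 19 genes in HCC and 15 of 19 in liver. Of all 26506 genes tested, 12574 were higher in deleted HCC and 14610 in deleted liver. The median of the 19 was -0.24 in HCC and -0.60 in liver, against -0.02 and 0.05 over all genes. In HCC the slides ran opposite ways. On slide 1 the mean of the list was -0.91 in the wild-type array, which is in doubt, and -0.60 in the deleted array. The array it would be exchanged with had a mean of -0.52. On slide 2 the means were -1.05 and -0.48 in wild-type HCC and -1.39 and -1.25 in deleted HCC. With slide as a block none of the 19 passed the adjusted threshold. An unadjusted p below 0.05 was reached by 2 genes in HCC, both lower (4.44% of all genes were), and by 3 in liver. Of these 3, 2 were lower and Cdk1 was higher (3.46% and 8.37% of all genes were). On slide 2, 7 genes in HCC and 13 in liver were lower at an unadjusted p below 0.05 (8.86% and 6.08% of all genes were), and Cdk1 was higher in liver. For the average of both tissues on slide 2, 4 of the 19 genes fell past the adjusted threshold, as did 276 of all genes (1.04%). They were the centromere histone gene Cenpa by 1.29 (adjusted p = 0.031), Ccnb1 by 1.62 (adjusted p = 0.044), Ccnb2 by 1.32 (adjusted p = 0.049) and the topoisomerase gene Top2a by 0.77 (adjusted p = 0.041). With slide as a block their adjusted p lay between 0.219 and 0.393, and with the 2 arrays exchanged between 0.114 and 0.155.

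**Figure D4:**
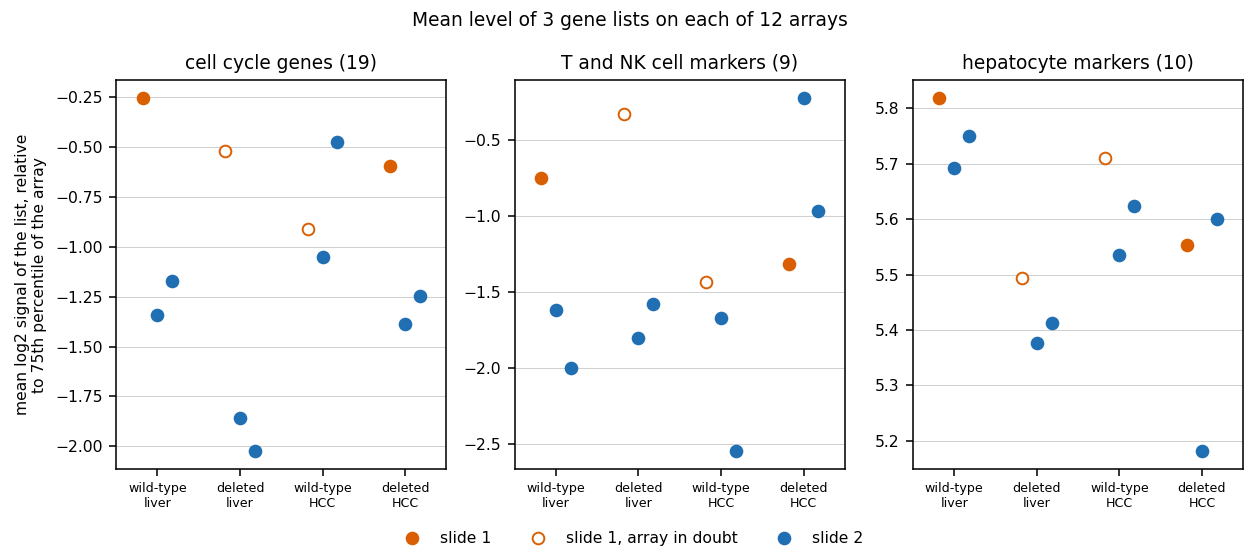
Mean log2 signal of 3 gene lists on each array, relative to the 75th percentile of the array, by group. Orange points are slide 1 (open where in doubt) and blue points slide 2. On slide 2 the cell cycle genes are lower in deleted liver (-1.86 and -2.02) than in wild-type liver (-1.34 and -1.17), and the T and NK cell markers are highest in deleted HCC (-0.22 and -0.96).

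Markers of other cell types moved with some of these comparisons. All 10 hepatocyte markers were well above background on all 12 arrays, and their mean level lay between 5.69 and 5.82 in wild-type liver, 5.38 and 5.49 in deleted liver, 5.54 and 5.71 in wild-type HCC and 5.18 and 5.60 in deleted HCC. The mean of 9 T and NK cell markers, all detected on every array, was -2.54 to -1.43 in wild-type HCC and -1.31 to -0.22 in deleted HCC, and 8 of 9 were higher in deleted HCC (median 1.09). That median was 1.74 on slide 2 and 0.60 with the arrays exchanged. After the exchange the HCC groups overlap, as the array labelled deleted liver replicate 1 had a mean of -0.33. Over all 26506 genes, 12574 were higher in deleted HCC. In deleted liver on slide 2, where Fas and Pmaip1 were higher too, the same markers had a median difference of -0.01. In HCC 5 of 7 B and plasma cell markers were higher (median 0.97), and not all of them were above background on every array. The mean of 7 cholangiocyte markers separated deleted liver (-0.10 to 0.09) from wild-type liver (-0.71 to -0.35), with a median difference of 0.59, and of 0.46 on slide 2. In that comparison Plk2, Perp, Zmat3, Phlda3, Cdkn1a and Ercc5 did not overlap. The same mean was also higher in wild-type HCC (-0.09 to 0.35) than in wild-type liver. The mean of 8 endothelial markers was lower in wild-type HCC (0.35 to 0.72) than in wild-type liver (0.90 to 1.07), where Plk2 was lower too. Of these 2 lists only Epcam was not above background on every array. The part of these cells in the values of Fas, Pmaip1, Plk2, Perp, Zmat3, Phlda3, Cdkn1a, Ercc5 and the cell cycle genes was not tested.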

How the data were processed

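Total RNA of 12 mouse samples was measured on 1-colour Agilent arrays of 62976 spots. The authors' scanner files hold background-subtracted, detrended signal intensity with surrogate values for dim spots, made with Agilent Feature Extraction 10.7 per the file headers and the submitters' processing notes. The authors' deposited value table holds log2 values of the same arrays and was used as an alternative. Control spots and flagged outliers were left out, spots of a probe were averaged, and log2 signal was set relative to the array's 75th percentile. A probe was kept if some group had it well above background on each of its 3 arrays, and each gene was read from its probe with the highest mean. Tests used limma 3.58.1 in R 4.3.3 across all genes, with 4 group means and slide as block (7 residual degrees of freedom), two-sided, with Benjamini-Hochberg adjustment over 26506 genes. The scripts were tested on simulated data. Same-numbered samples deviated together (18 of 18 pairs, r from 0.279 to 0.737), but number and slide coincide in part, and within slide 2 only 2 of 6 pairs exceeded 0.1. The number of arrays limits the precision.

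Named were all members, with values by array for Trp53, Mdm2, Cdkn2a, Cdkn1a and the 5 members of smallest p per comparison, and up to 4 genes of other lists. Ercc5 was added after its values were seen. The members and lists were chosen with earlier results of these data known. Some genes of the other lists are not reported here.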

Additional observations from a re-analysis of the deposited data

Results flagged for a closer look

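Plk2, a polo-like kinase gene, was singled out because HCC stood on opposite sides of liver in the 2 genotypes. It was lower in every array of wild-type HCC than in every array of wild-type liver (-0.32, SE 0.18, adjusted p = 0.752, limma), and higher in every array of deleted HCC than in every array of deleted liver (0.45, SE 0.18, adjusted p = 0.904). The difference between the genotypes, tested as an interaction, was 0.77 (SE 0.25, adjusted p = 0.913), so it did not pass. The groups of the 2 arrays in doubt enter this term with the same sign. Exchanging them therefore leaves 0.77 unchanged by construction (adjusted p = 0.891, limma), which says nothing about the doubt. On slide 2 the value was 0.47 (adjusted p = 0.999), and leaving out each array in turn gave 0.58 to 0.84.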

How the results depend on the processing

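Members past the adjusted threshold numbered 0 in each comparison under all alternatives except 1, Pmaip1, for the average of both tissues on slide 2. The median difference of the members is not stable. For deletion in HCC it was 0.012 with the 2 arrays exchanged (also with no slide block or with a replicate block) and 0.011 in the deposited value table. For deletion in liver these values were -0.047 and -0.055, and leaving out each array gave -0.021 to 0.198 (ends: wild-type liver replicates 3 and 1). For wild-type HCC against liver it was 0.052 on slide 2, 0.020 without both arrays in doubt, and -0.222 to -0.033 leaving out each array (ends: wild-type HCC replicates 3 and 1). For the difference between tissues it was 0.020 on slide 2 and without both arrays, and -0.038 to 0.257 leaving out each array (ends: wild-type liver replicate 1 and deleted HCC replicate 1). With the 2 arrays exchanged the sign turned for 8 of 32 members in HCC, 6 in liver and 8 in the average of both tissues, whose count of higher and lower members went from 22 and 10 to 14 and 18. On slide 2 it turned for 6, 7 and 9. Among the members followed under all alternatives, in HCC Cdkn2a was -0.41 with the arrays exchanged (in all 3 block settings and the value table), -0.086 without both, and -0.28 to 0.65 leaving out each array. In liver Cdkn2a was -0.35 on slide 2, -0.69 exchanged (same 3 settings), -0.54 without both, -0.70 in the value table and -0.67 to 0.37 leaving out each array. Mdm2 in liver was -0.17 exchanged (same 3 settings) and -0.18 in the value table. Sesn1 in the difference between tissues was -0.052 on slide 2 and without both arrays, and Trp53 in HCC ran from -0.48 to 0.083 leaving out each array. The other 565 values of genes named for a comparison, and 462 leave-one-out values, kept direction and side. The replicate block, with the number pairing the samples, called 0 members, left the medians at 0.14 in HCC and 0.07 in liver and turned no call. Genes at an unadjusted p below 0.05 numbered 2091 in HCC and 3136 in liver with slide as a block, 1980 and 2803 with the replicate block, and 486 and 803 with no slide block. The cause of these shifts was not tested. The average over both tissues and the exchange combined with another block setting were chosen after seeing the data. Dim probes limit Pmaip1, Rrm2b, Mdm4 and Ddit4l, which were not well above background on every array.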

Other observations

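Some members have several kept probes, and these do not always agree. Of the 6 such members (Aen, Cdkn1a, Dcxr, Ercc5, Polk and Trp53inp1) the probes differed in sign for 2 in HCC and 3 in liver. For Trp53inp1 the brighter probe (mm9 chr4:11101174-11101233) gave -0.79 in HCC and -0.47 in liver, and the probe at chr4:11092530-11092589 gave 0.11 and 0.24. For Polk the probe at chr13:97251653-97251712 gave 0.11 in HCC, and that at chr13:97256835-97256894 gave -0.48. The 3 probes of Cdkn1a, at chr17:29237377-29237436, chr17:29235299-29235358 and chr17:29227986-29228045, gave 0.80, 0.00 and 0.20 in HCC and 0.62, 0.20 and 0.42 in liver. None of these passed an adjusted p of 0.05 in limma.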
